A study of Mus musculus with 150 samples.

Results

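Scgb3a1-high and Scgb3a1-low club cells are 86 single cells of the mouse lung, of 127 single cells that passed the filters and of 150 samples in the series. A cell was taken as club-dominant when its Scgb1a1 level exceeded its Sftpc level, and this held for 95 of the 127 cells. Among these, 47 cells with Scgb3a1 at 1000 TPM or more were called high and 39 cells below 100 TPM were called low. TPM is a gene's share of a cell's transcripts after correction for gene length, scaled to the same total in every cell. The cells were thus chosen by their measured levels of Scgb3a1, Scgb1a1 and Sftpc. The 9 club-dominant cells between these thresholds were set aside. The wild-type chip held 18 high, 26 low and 5 intermediate cells, and the chip labelled p53 knockout held 29 high, 13 low and 4 intermediate cells.

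The series asks how airway progenitor cells behave with and without p53. Single cells were captured on Fluidigm C1 chips, which isolate cells in microfluidic wells, with a separate chip and table per genotype, and bulk RNA was sequenced from 3 wild-type and 3 knockout libraries. The mice carried Scgb1a1-CreERTM, a tamoxifen-activated Cre recombinase under the club cell Scgb1a1 promoter, with the Rosa26-mT/mG or Rosa26R-Confetti reporter, and the protocol gives a tamoxifen dose of 250 mg/kg for RNA sequencing. The knockout cells carry the label p53-/-, and the labels do not make clear whether that deletion was germline or induced, or whether cells went onto the chips fresh or after culture. Bulk cells came from mice of 8 to 12 weeks that were Rosa26-mT/mG and either p53+/+ or p53flox/flox, and they were sorted as GFP+, EpCAM+ and negative for CD31, CD34, CD45 and the dead-cell dye 7AAD. The protocol places the sort 70 days after tamoxifen, whereas the bulk titles name day 30. Since Cre was driven by Scgb1a1, the bulk deletion is limited to cells in which that promoter was active.

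Club cells are the secretory cells of the mouse conducting airway. They release Scgb1a1, a small secretoglobin, and carry cytochrome P450 enzymes that metabolise inhaled compounds. Scgb3a1 is another secretoglobin, known chiefly from secretory cells of the upper and proximal airway, where antimicrobial proteins and gel-forming mucins are also released onto the airway surface.

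Kept cells had medians of 3009 to 3894 genes at a TPM of at least 1 in the 4 groups compared, and medians of 5.44% to 11.3% of TPM in ERCC spike-in RNAs. High cells had more detected genes than low cells on both chips, 3327 against 3009 on the wild-type chip and 3894 against 3192 on the chip labelled knockout. Trp53, the targeted gene, was detected in 2 of 18 high and 1 of 26 low wild-type cells, and in 8 of 29 high and 2 of 13 low cells labelled knockout. Its median was 0 TPM in each of the 4 groups. Detection was thus sparse and not lower in the cells labelled knockout, so the second chip is called by its label throughout. In bulk, Trp53 stood at 7.56 to 9.98 FPKM in the knockout libraries and at 16.6 to 22.2 FPKM in the wild-type libraries. Both are whole-gene values, which include exons outside any deleted part. TPM and FPKM keep no read counts, so the depth is unknown. No animal is named for any cell, so each chip is 1 sample and the contrast is described without a test.

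Scgb3a1, which chose the cells, separated them widely. Wild-type high cells held 1036 to 71974 TPM of Scgb3a1 with a median of 16278, and wild-type low cells held 0 to 72.5 TPM with a median of 0.895. High cells labelled knockout held 13985 to 54837 TPM with a median of 32558, and low cells held 0 to 2.73 TPM with a median of 0.71. The cells nearest the thresholds lay at 72.5 and 108 TPM and at 727 and 1036 TPM on the wild-type chip, so some wild-type cells fell close to either side. On the chip labelled knockout the nearest cells lay at 2.73 and 147 TPM and at 782 and 13985 TPM, which leaves the high group far from its threshold. High cells made up 36.7% of the 49 club-dominant wild-type cells (exact 95% interval 23.4% to 51.7%) and 63.04% of the 46 club-dominant cells labelled knockout (47.5% to 76.8%). The intervals cover counting error only, and with 1 chip per genotype, genotype and chip cannot be told apart.

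The club label was checked against Cyp2f2 and the markers of other lineages, since Scgb1a1 was part of the choice of cells. Scgb1a1 had medians of 343060 TPM in wild-type high cells and 421569 TPM in wild-type low cells, and of 352732 and 420104 TPM in the high and low cells labelled knockout. Cyp2f2, the club cell P450 that activates naphthalene, was detected in all 86 members, with medians of 10996 and 14658 TPM in wild-type high and low cells and of 11288 and 14548 TPM on the chip labelled knockout. High minus low, the mean log2(TPM + 1) of Cyp2f2 differed by -0.44 and -0.14, so the marker did not separate the groups. Of the defining markers of other lineages, Krt5, Krt14 and Trp63 (basal), Ptprc (leukocyte), Col1a1 (fibroblast), Pecam1 (endothelium) and Foxi1 (ionocyte) were detected in none of the 86 cells, and Foxj1 (ciliated cells) in none of the low cells and none of the high cells labelled knockout. Other members of these lists were detected. Kdr, a VEGF receptor on the endothelial list, was in 3 of 18 high and 15 of 26 low wild-type cells and in 2 of 29 high and 9 of 13 low cells labelled knockout. Sparc, a matrix protein on the fibroblast list, was in 2 of 18 and 7 of 26, and in 3 of 29 and 6 of 13. The 15 ciliated markers summed to medians of 493 and 366 TPM in wild-type high and low cells and of 583 and 536 TPM on the chip labelled knockout. However, 14 of the 15 had a median of 0 in each group, or 13 in the low cells labelled knockout. Sec14l3 of that list was in 17 of 18 and 26 of 26 wild-type high and low cells, and in 29 of 29 and 12 of 13 labelled knockout. Tppp3 was in 2 of 18, 3 of 26, 8 of 29 and 4 of 13. The part of these transcripts in the contrast was not tested.

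Alveolar type 2 transcripts were present in many wells. Sftpc, the surfactant protein gene that marks alveolar type 2 cells, was at 1000 TPM or more in 6 of 18 wild-type high cells, 9 of 26 wild-type low cells, 10 of 29 high cells labelled knockout and 8 of 13 low cells labelled knockout. The summed level of 17 alveolar type 2 markers without Sftpc had medians of 3700 TPM in high and 2445 TPM in low wild-type cells, with ranges of 30.8 to 23904 and 38.6 to 29507. On the chip labelled knockout the medians were 4102 TPM in high and 9558 TPM in low cells, with ranges of 400 to 21556 and 1959 to 34285. Lamp3, a lysosomal membrane protein of alveolar type 2 cells, was chosen here after its values were seen. It was detected in 3 of 6, 6 of 9, 9 of 10 and 6 of 8 of these cells, in the same order, and in 1 of 12, 0 of 17, 1 of 19 and 0 of 5 of the cells with less Sftpc. Lyz2 and Sftpb, also listed, were still detected in cells with less Sftpc, though in no larger share than in cells with more. There, Lyz2 was in 8 of 12, 8 of 17, 7 of 19 and 2 of 5, at up to 7531 TPM. Sftpb was in 9 of 12, 17 of 17, 12 of 19 and 4 of 5. Cells with less Sftpc were thus not free of such transcripts. The part of such transcripts in the contrast was not tested beyond a repeat without the cells at or above 1000 TPM of Sftpc, whose values stand beside the results they move.

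Genes were compared as the difference of mean log2(TPM + 1), high minus low, within each chip. A gene was counted when the difference was at least 2 in the same direction on both chips and at least 30% of cells in the higher group of each chip had a TPM of at least 1. Of 8745 tested genes, 75 were higher in Scgb3a1-high cells on both chips (0.858%) and 9 were lower on both (0.103%). The wild-type chip by itself gave 129 higher genes (1.48%) and 29 lower genes (0.332%), and the chip labelled knockout gave 231 (2.64%) and 81 (0.926%). The 75 shared higher genes were 58.1% of the wild-type list and 32.5% of the other, and the 9 shared lower genes were 31.03% and 11.1%. The median difference over all tested genes was 0.04 on the wild-type chip and 0.13 on the chip labelled knockout. Positive differences numbered 4644 and 5105 on these chips, with the genes that chose the cells included. The share of all genes with the same sign on both chips was not taken. Counts of sign on both chips, given for lists below, therefore stand without that background. Scgb3a1, Scgb1a1 and Sftpc chose the cells and are left out of the other counts. Because the other genes come from the same cells as the rule, these counts describe the groups and test nothing. With other pseudocounts, ratios of mean TPM or plate rows, the count of higher genes ran from 29 to 183 and that of lower genes from 2 to 61.

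**Figure D1:**
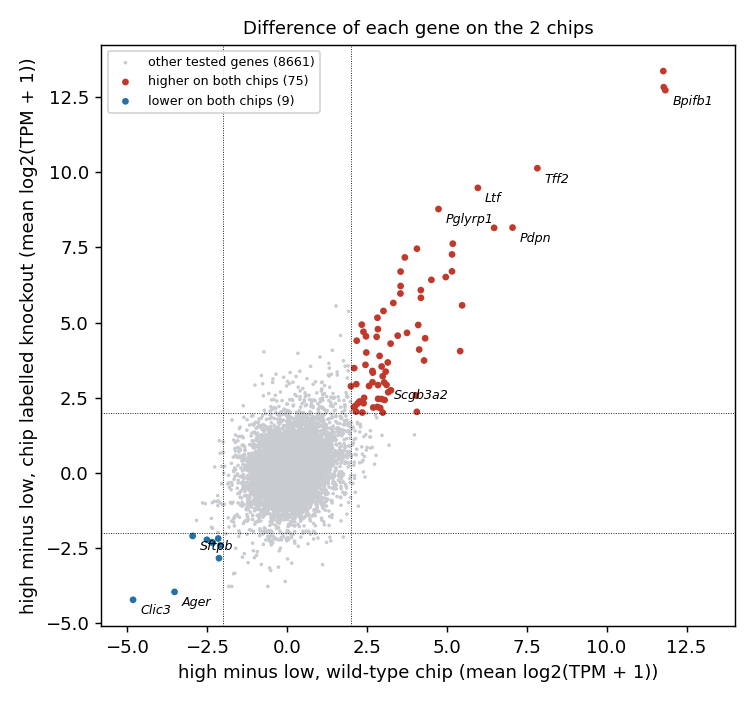
Difference of mean log2(TPM + 1) between Scgb3a1-high and Scgb3a1-low cells, wild-type chip on the x axis and chip labelled knockout on the y axis, 1 point per tested gene. Dotted lines mark differences of 2 in either direction; the 75 genes higher on both chips run up to Bpifb1 at 11.84 and 12.73, and the 9 lower genes run down to Clic3 at -4.81 and -4.22.

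The cells of the high and low groups did not overlap for 3 higher genes on the wild-type chip (0.0343% of tested genes), namely Bpifa1, Bpifb1 and Reg3g. On the chip labelled knockout there were 11 such genes (0.126%): the same 3 with Tff2, Muc5b, Pdpn, Lypd2, Cxcl17, Gsto1, Pglyrp1 and RP24-378G4.3. No gene had every low cell above every high cell on either chip (0.0%).

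The largest differences were in secreted host defence proteins. Bpifb1, a secreted protein of the BPI fold family made by upper airway glands and surface epithelium, had 837 to 23338 TPM in wild-type high cells (median 7836) and 0 to 9.32 TPM in wild-type low cells (median 0.12). In cells labelled knockout its range was 2187 to 26717 TPM in high cells (median 9666) and 0 to 1.01 TPM in low cells (median 0.33). The groups were thus separated by more than an order of magnitude at their closest, and the mean differences were 11.84 and 12.73 on the log2 scale. Reg3g, a C-type lectin that kills Gram-positive bacteria, ranged from 169 to 25229 TPM in wild-type high cells (median 7019) and from 0 to 8.17 TPM in low cells (median 0). The corresponding values on the chip labelled knockout were 1820 to 38709 TPM (median 11973) and 0 to 9.41 TPM (median 0.24). Its differences of 11.79 and 12.83 were close to those of Bpifb1. In GENCODE M21 on GRCm38, Bpifa1 (chr2:154142880-154149219) and Bpifb1 (chr2:154190818-154220369) lie in the same cluster of chromosome 2, Reg3g lies at chr6:78466269-78468872 and Scgb3a1 at chr11:49663610-49665118. Bpifa1, the short relative of Bpifb1 that coats the airway surface, reached the highest single-cell levels of the 3, up to 125067 TPM in wild-type high cells (minimum 97.7, median 9092) and up to 97172 TPM in high cells labelled knockout (minimum 9.24, median 22464). Low cells held at most 40.8 and 1.52 TPM of Bpifa1, with medians of 0.40 and 0.82, and the differences were 11.77 and 13.36.

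The sequences before the start sites of these genes are shown because Scgb3a1 and its 3 leading companions were high in the same cells, with Clic3 as the leading gene in the other direction. They are the 250 bases upstream of the RefSeq start on GRCm38.p6, in 5′ to 3′ order of the gene's strand. Capitals mark matches to 4 motifs searched on both strands. The motif of the TATA box was TATAAA. The forkhead motif was TGTTTNC. The C/EBP motif was TTGCNNAA. For NF-kB the motif began with GGGA, left the next 4 bases free and ended with CC.
Scgb3a1 at chr11:49663345-49663594, plus strand: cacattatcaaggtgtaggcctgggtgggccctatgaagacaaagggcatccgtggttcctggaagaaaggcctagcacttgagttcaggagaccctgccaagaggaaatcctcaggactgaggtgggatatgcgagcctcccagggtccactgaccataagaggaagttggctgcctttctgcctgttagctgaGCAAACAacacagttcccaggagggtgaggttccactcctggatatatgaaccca
Bpifb1 at chr2:154190568-154190817, plus strand: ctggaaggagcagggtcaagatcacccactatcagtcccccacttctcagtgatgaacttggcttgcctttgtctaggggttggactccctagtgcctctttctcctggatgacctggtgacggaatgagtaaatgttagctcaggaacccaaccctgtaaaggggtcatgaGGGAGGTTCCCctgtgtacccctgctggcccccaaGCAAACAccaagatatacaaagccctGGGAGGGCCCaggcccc
Reg3g at chr6:78468875-78469124, minus strand: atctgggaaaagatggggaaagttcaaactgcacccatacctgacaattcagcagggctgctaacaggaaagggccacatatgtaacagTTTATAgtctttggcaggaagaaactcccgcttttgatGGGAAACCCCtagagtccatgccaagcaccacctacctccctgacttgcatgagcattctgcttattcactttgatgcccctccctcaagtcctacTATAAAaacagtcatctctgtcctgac
Bpifa1 at chr2:154142630-154142879, plus strand: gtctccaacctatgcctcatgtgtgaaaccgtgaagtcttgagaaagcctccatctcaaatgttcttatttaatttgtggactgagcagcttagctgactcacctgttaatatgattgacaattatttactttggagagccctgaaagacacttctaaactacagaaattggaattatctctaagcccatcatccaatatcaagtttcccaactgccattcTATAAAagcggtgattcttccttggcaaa
Clic3 at chr2:25456593-25456842, plus strand: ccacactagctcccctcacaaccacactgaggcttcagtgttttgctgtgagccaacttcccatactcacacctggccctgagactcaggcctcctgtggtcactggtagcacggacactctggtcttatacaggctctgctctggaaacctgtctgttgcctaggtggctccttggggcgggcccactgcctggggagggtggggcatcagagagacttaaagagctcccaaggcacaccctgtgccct
Scgb3a1 and Bpifb1 each hold 1 forkhead match, GCAAACA on the printed strand, with its first base at -55 and -43 from the start. Bpifb1 has overlapping NF-kB matches in opposite orientation that begin at -78 and -77 and a further one at -17. Reg3g has 1 NF-kB match at -123 and TATAAA at -27, with a reverse TATA match at -161, and Bpifa1 has TATAAA at -29. The Clic3 window has none of the 4 strings.

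The RefSeq table held windows of 300 bases, to 50 bases past the start, for 51 of the 75 higher genes, 7 of the 9 lower genes and 6102 of the tested genes. The forkhead string was in 18 of the 51 higher genes (35.3%), in 2 of 7 lower genes and in 18.2% of tested genes. The NF-kB string was in 21 of 51 (41.2%), in 2 of 7 and in 29.4% of tested genes. TATAAA was in 11 of 51 (21.6%), in 0 of 7 and in 9.2% of tested genes, and the C/EBP string in 8 of 51 (15.7%), in 0 of 7 and in 10.3%. These are matches of letters in a window, given without a test.

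Of 30 listed airway host defence proteins, 15 were detected often enough to be tested. Of these, 7 were higher on both chips and 0 lower, with median differences of 1.93 and 2.92 against 0.04 and 0.13 for all tested genes. Besides the 3 leaders they were Ltf (lactoferrin, which binds iron), Pigr (the receptor that carries IgA across epithelium), Cxcl17 (a mucosal chemokine) and Msln (mesothelin, a surface glycoprotein). Ltf had a median of 426 TPM in wild-type high cells (0 to 3327) and of 0 in low cells (0 to 311), and of 1156 TPM (61.9 to 7667) and 0 (0 to 306) on the chip labelled knockout. Ltf was detected in 15 of 18 high cells and 7 of 26 low cells on the wild-type chip, and in 29 of 29 and 1 of 13 on the other. Msln was found in fewer high cells, 12 of 18 and 14 of 29. Pigr was detected in all 47 high cells with medians of 99.97 and 140 TPM, and in 13 of 26 and 8 of 13 low cells, with differences of 4.33 and 4.48. Cxcl17 had medians of 800 and 1540 TPM in high cells and of 16.9 and 3.17 TPM in low cells, and its low cells reached 1360 TPM on the wild-type chip. Pglyrp1, which recognises bacterial peptidoglycan, differed by 4.74 and 8.77, with 14 of 18 wild-type high cells, all 29 high cells labelled knockout, 5 of 26 wild-type low cells and 0 of 13 low cells labelled knockout detected.

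**Figure D2:**
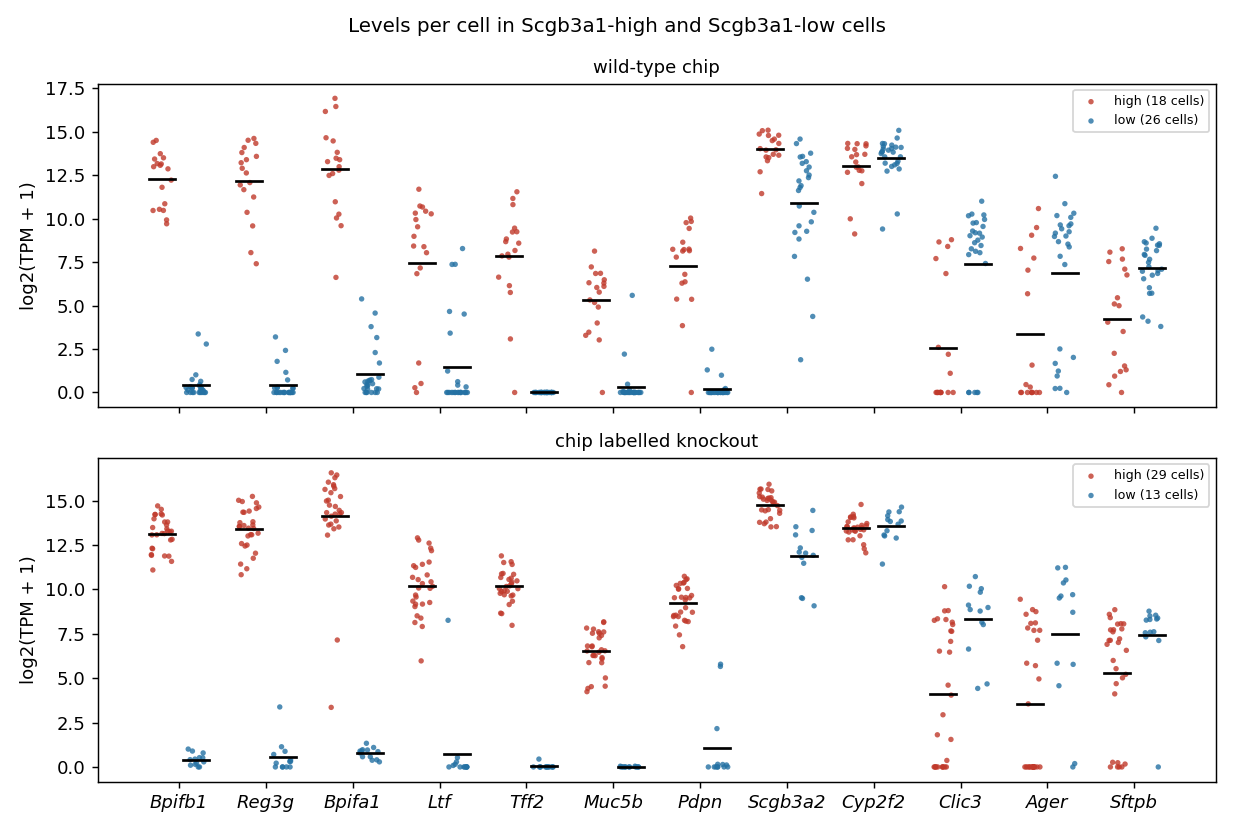
Level of 12 genes in each cell as log2(TPM + 1), Scgb3a1-high cells in red and Scgb3a1-low cells in blue, with a black bar at the mean of each group. Bpifb1, Reg3g and Bpifa1 separate the groups, Cyp2f2 is at a like level in both, and Clic3, Ager and Sftpb are lower in high cells but overlap.

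Of 22 listed goblet and mucin genes 14 were tested, and 4 were higher on both chips and 0 lower, with median differences of 1.40 and 1.86. Tff2, a trefoil peptide secreted with mucus, was at 0 TPM in all 26 wild-type low cells and at most 0.36 TPM in low cells labelled knockout. Its high cells ranged from 0 to 3003 TPM (median 337) and from 251 to 3794 TPM (median 1148). Tff2 was thus detected in 46 of 47 high cells and in none of the 39 low cells. Muc5b, a gel-forming airway mucin, had medians of 59.4 and 92.2 TPM in high cells and of 0 in both low groups, where 2 of 26 and 0 of 13 cells were detected. Agr2, an endoplasmic reticulum protein that mucin folding depends on, differed by 4.07 and 7.45 and was found in 10 of 18 and 25 of 29 high cells, but in 1 of 26 and 0 of 13 low cells. Qsox1, a secreted sulfhydryl oxidase, completed the 4 with differences of 2.68 and 3.39.

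Among the secretoglobins, Scgb3a2 ranged from 2797 to 35088 TPM in wild-type high cells (median 16427) and from 2.69 to 24629 TPM in low cells (median 3698). High cells labelled knockout held 11771 to 62229 TPM (median 31604) and low cells 539 to 22399 TPM (median 4226). Scgb3a2 therefore differed in level, by 3.12 and 2.93, while it was detected in every member, and the groups overlapped. Scgb1c1, the remaining secretoglobin tested, differed by -0.60 and -3.78 and did not pass on both chips. Whether the chips differ was not tested.

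Pdpn, the mucin-type membrane glycoprotein podoplanin, had medians of 283 TPM in wild-type high cells (0 to 1051) and 0 in low cells (0 to 4.62), and of 736 TPM (109 to 1708) and 0 (0 to 54.3) on the chip labelled knockout. Pdpn is listed both as an alveolar type 1 and as a basal cell marker; the other tested member of the basal list was Aqp3, an aquaporin, at differences of 1.63 and 2.41. The summed level of the 9 basal markers had medians of 298 TPM in high and 0.06 TPM in low wild-type cells, and of 737 and 0.1 TPM on the chip labelled knockout, while Krt5, Krt14, Trp63, Ngfr, Krt17 and Dapl1 of that list were in no member cell. Lypd2, a small Ly6-type protein, differed by 6.48 and 8.15, Chad (chondroadherin, a matrix protein) by 5.48 and 5.57, Fxyd3 (a regulator of the sodium pump) by 5.17 and 7.27, and Slc15a2 (a peptide transporter) by 4.52 and 6.42. Kcne3, a potassium channel subunit, was the only 1 of 19 tested ion and fluid transport genes past the rule on both chips, with 11 of 18 and 24 of 29 high cells detected and none of the 39 low cells.

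Detoxifying enzymes were split rather than uniformly higher. Of 23 tested club cell xenobiotic enzymes 5 were higher on both chips and 0 lower, but the list medians were -0.08 and 0.48. Among them, Sult1d1 (a sulfotransferase) differed by 5.16 and 6.70 and Adh7 (an alcohol dehydrogenase) by 2.83 and 5.16. Cyp2a5 differed by 5.42 and 4.05 and Cyp4a12b by 4.11 and 4.92, but each has a near-identical neighbour, so the share of reads assigned to each copy is uncertain. Of 30 tested glutathione, aldehyde and peroxide genes, Gsto1 (3.56 and 6.69) and Aldh3a1 (4.19 and 5.82) were higher on both chips and 0 lower. Catalase, Cat, stood at -1.67 and -1.52, below the size rule.

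Of 37 tested endoplasmic reticulum genes, which serve protein secretion, 0 passed in either direction, while 22 had positive and 5 negative differences on both chips, with medians of 0.38 and 0.78; Xbp1, a regulator of that apparatus, stood at 2.61 and 1.40. Of 27 tested lung epithelial transcription factors 0 passed, with medians of 0.06 and 0.14. Those nearest to the rule in the positive direction were Foxa1 (1.82 and 1.66), Sox9 (1.82 and 1.60), Klf4 (2.13 and 1.40) and Sox2 (1.85 and 1.38), and Hopx stood at -1.66 and -1.64. Sox9 was found in 9 of 18 and 12 of 29 high cells and in none of the 39 low cells. Of 12 tested MHC class I and interferon genes Ifitm3 passed, and of 17 NF-kB and chemokine genes Tnfaip2 and Cxcl5 passed. Immediate early genes, which respond fast to stimuli and to cell dissociation, had 0 of 19 past the rule and 14 negative on both chips, with medians of -0.84 and -0.71. Of 15 tested p53 pathway genes 0 passed, with medians of -0.22 and -0.05.

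Of 13 tested genes on a list of other club cell markers, Lypd2 was higher and Clic3 lower, with medians of -0.80 and 0.09. None passed of 11 Notch pathway genes (medians 0.06 and -0.15), 4 MHC class II genes (-0.24 and -1.31), 8 cell cycle genes (-0.01 and 0.28) or 13 genes of the mitochondrial genome (0.19 and 0.06). Of 17 glycolysis and hypoxia genes Hk2 was lower and 0 higher, with medians of 0.39 and 0.51. Of 12 listed club cell markers, 10 were tested, without Scgb1a1 and Scgb3a1, which chose the cells. Scgb3a2, Bpifb1 and Reg3g were higher and Clic3 lower, and the list was chosen with such values known. The ciliated list had 3 tested genes, the ionocyte and tuft list 2, the immune, fibroblast and endothelial lists 1 each and the neuroendocrine list 0, and none of these passed.

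The 9 genes lower in high cells were fewer and less sharply separated. Clic3, a chloride intracellular channel family protein (chr2:25456838-25458776), ranged from 0 to 443 TPM in wild-type high cells (median 0) and from 0 to 2062 TPM in low cells (median 464). On the chip labelled knockout it ranged from 0 to 1139 TPM in high cells (median 15.5) and from 20.5 to 1689 TPM in low cells (median 465). Clic3 was detected in 8 of 18 and 18 of 29 high cells and in 21 of 26 and 13 of 13 low cells, so the groups overlapped, with differences of -4.81 and -4.22. Ager, the receptor for advanced glycation end products and a marker of alveolar type 1 cells (chr17:34597862-34600936), had medians of 0.305 and 457 TPM in wild-type high and low cells and of 0 and 732 TPM on the chip labelled knockout, with differences of -3.51 and -3.96. Ager and Pdpn, both on the alveolar type 1 list, thus lay in opposite directions, and the other 6 tested members of that list did not pass. Of the 8 tested members, 6 were negative and 1 was positive on both chips, with medians of -0.42 and -0.79. Sftpb, the surfactant protein B gene of alveolar type 2 and club cells, was detected in all 26 wild-type low cells at 12.9 to 700 TPM (median 164) and had a median of 23.2 TPM in high cells (0 to 308). The medians on the chip labelled knockout were 119 TPM (0 to 463) and 308 TPM (0 to 437), and the differences were -2.95 and -2.10.

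The other 6 lower genes were Cd200 (an immunoglobulin-type surface protein), Mbip (a kinase-binding protein), Hk2 (hexokinase), Exosc7 (an RNA exosome subunit), Pvrl3 (the adhesion protein nectin-3) and B430010I23Rik, with differences between -2.84 and -2.08. Hk2, the least often detected of them in wild-type high cells with Pvrl3, was found in 2 of 18 and 11 of 29 high cells and in 13 of 26 and 11 of 13 low cells. Of 17 tested alveolar type 2 markers other than Sftpc, Sftpb passed and 13 were negative on both chips, with medians of -0.34 and -1.71. Without the cells at 1000 TPM or more of Sftpc, 89 genes were higher and 8 lower, of which 60 and 5 were among the 75 and 9. Clic3 was then at -5.37 and -5.29, Ager at -5.22 and -2.57 and Sftpb at -3.45 and -2.55, so these 3 were as large or nearly so without such cells, apart from Ager on the chip labelled knockout. Hk2 turned to 0.81 on the chip labelled knockout, and Mbip, Cd200 and Pvrl3 no longer passed. Only 5 low cells labelled knockout were left there. In the cells at or above 1000 TPM of Sftpc the groups lay closer for some of these genes. Ager had medians there of 421 and 513 TPM in wild-type high and low cells, and of 206 and 812 TPM on the chip labelled knockout. Sftpb had 146 and 304 TPM, and 215 and 250 TPM, in the same order. Clic3 had 4.3 and 393 TPM, and 89.3 and 374 TPM. Whether the differences depend on Sftpc was not tested.

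The 75 genes were chosen on these same high and low cells, so their counts per cell restate that choice and are given to show the spread. Of the 75, a median of 62.5 were detected per wild-type high cell (34 to 68) and 21.5 per low cell (3 to 33). On the chip labelled knockout the medians were 66 (51 to 71) and 25 (17 to 33). By mean log2(TPM + 1) of the 75, 1 wild-type high cell (2.48) lay under the highest low cell (2.60), and on the chip labelled knockout the lowest high cell (5.17) was above the highest low cell (3.05). Within the high cells, the mean of the 75 and log2 Scgb3a1 had a Pearson r of 0.42 over 18 wild-type cells and of 0.50 over 29 cells labelled knockout (Spearman 0.43 and 0.48). Cells of a chip are 1 sample and differ in genes detected, so these values are descriptions.

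Cells that the contrast did not use had medians nearer to those of the low cells, with exceptions. Intermediate cells had medians of 24 (wild type, 17 to 34) and 30.5 (labelled knockout, 13 to 38) of the 75 genes detected, against at most 33 in low cells of either chip. The highest mean log2(TPM + 1) of an intermediate cell was 3.37 on the wild-type chip and 3.11 on the chip labelled knockout, both above the highest low cell of the chip. Bpifa1 was detected in 3 of 5 and 3 of 4 intermediate cells, Reg3g and Bpifb1 each in 1 of 5 and 2 of 4, and Tff2 in 1 of 5 and 0 of 4. Intermediate cells labelled knockout reached 829 TPM of Bpifa1, 646 TPM of Reg3g and 366 TPM of Bpifb1, above every low cell of that chip. Of the 9 lower genes, intermediate cells had medians of 7 and 8 detected, against 6 and 8 in low cells and 3 and 5 in high cells. Sftpc-dominant cells had medians of 12 and 17 of the 75, and of 5 and 6 of the 9 lower genes, so the latter were not particular to low cells. One of the 15 labelled knockout reached the high threshold, with 5474 TPM of Scgb3a1, and had 43 of the 75 genes detected, the most of any Sftpc-dominant cell, with a mean log2 level of 3.79.

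**Figure D3:**
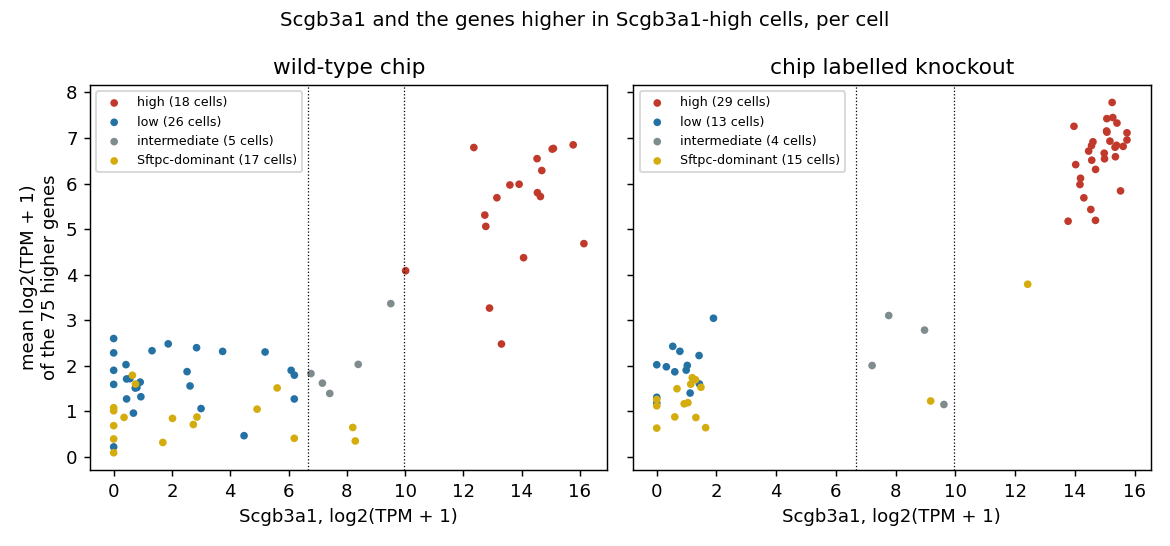
Mean log2(TPM + 1) of the 75 higher genes against log2(TPM + 1) of Scgb3a1, 1 point per kept cell, by chip, with dotted lines at 100 and 1000 TPM of Scgb3a1. High cells (red) lie above the rest from 5.17 upward on the chip labelled knockout, whereas on the wild-type chip the lowest high cell (2.48) lies under the highest low cell (2.60, blue) and the highest intermediate cell (3.37, grey).

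The bulk libraries were not used to choose the cells. In them, cells of both kinds are mixed, and fewer cells of a type cannot be told apart from less RNA per cell. Scgb3a1 stood at 1473, 18473 and 25279 FPKM in wild-type replicates 1, 5 and 6, and at 10618, 20354 and 15666 FPKM in knockout replicates 7, 8 and 10. Wild-type replicate 1 was thus far below the other 5 libraries, and the genotypes overlapped. Knockout minus wild type, it differed by a log2 fold change of 0.77 (standard error 1.05, limma adjusted p = 0.806), within the spread between libraries. Bpifb1 showed the same low library, with 367, 4897 and 4085 FPKM in wild type and 2295, 4777 and 2832 FPKM in knockout (log2 fold change 0.69, standard error 0.97, limma adjusted p = 0.810). Reg3g had 215, 4140 and 3958 FPKM in wild type and 1658, 3016 and 2745 FPKM in knockout (log2 fold change 0.65, standard error 1.11, limma adjusted p = 0.851). Without wild-type replicate 1 the log2 fold changes of Scgb3a1, Bpifb1 and Reg3g turned to -0.53, -0.51 and -0.76. No call rests on them, but their direction was set by that library.

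**Figure D4:**
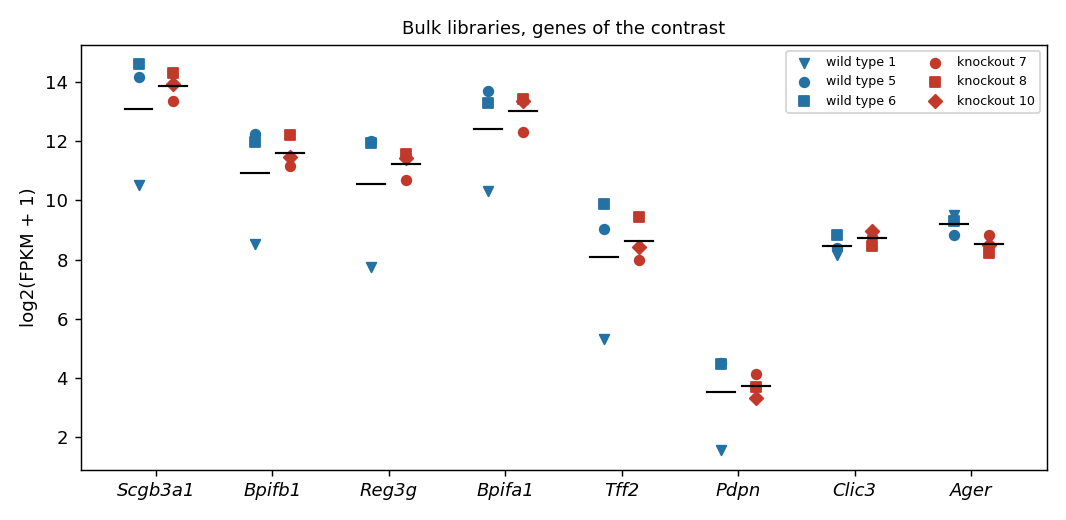
Bulk level as log2(FPKM + 1) of 8 genes in each library, wild type in blue and knockout in red, with a black bar at the mean of each genotype (n = 3 each). Wild-type replicate 1 (blue triangles) is the lowest library for the first 6 genes and for Clic3, and the highest for Ager.

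Wild-type replicate 1 had the lowest value of the 6 libraries for 68 of the 73 higher genes tested in bulk (93.2%), against 28.1% of all 11957 tested genes. Its log2 ratio to the mean of the other libraries had a median of -1.24 over these 73 genes and of 0.00 over all tested genes. Averaged as log2(FPKM + 1), the 73 genes stood at 5.36 there, while the remaining 5 libraries lay between 6.58 and 7.16. For the 9 lower genes the 6 libraries spanned 6.74 to 7.07, with wild-type replicate 1 at 7.02. That library was the highest for 6 of the 9, against 26.4% of all tested genes. Most of the genes that were higher in Scgb3a1-high cells were thus lowest together in wild-type replicate 1. Whether they vary together among the remaining libraries was not tested.

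Between genotypes, 1 of 11957 tested genes passed limma's threshold of 0.05 after Benjamini-Hochberg adjustment (0.00836%), and none of the 73 higher or 9 lower genes did. Without wild-type replicate 1, 408 genes passed, among them 1 of the 73 and 0 of the 9. Of the 73, 58 had positive and 15 negative fold changes, against 6156 and 5801 of all 11957 tested genes. At an unadjusted limma p under 0.05, 3 of the 73 were higher and 0 lower. Of all 11957 tested genes, 842 were higher and 724 lower at that level. The median of the 73 was 0.27 against 0.01 for all genes, and it was -0.22 without wild-type replicate 1. Of the 9 lower genes, 7 had negative fold changes, with a median of -0.12, and 3 were lower at an unadjusted p under 0.05. Ager stood at 728, 459 and 631 FPKM in wild-type replicates 1, 5 and 6 and at 457, 297 and 362 FPKM in knockout replicates 7, 8 and 10, without overlap though 459 and 457 nearly met. Ager's log2 fold change of -0.70 (standard error 0.24) did not pass (limma adjusted p = 0.336). In all, knockout libraries were below every wild-type library for 4 of the 9 lower genes and above for 2 of the 73 higher genes. Of all tested genes, 19.3% did not overlap, with both directions counted together. The share for each direction by itself was not taken, so these counts stand without a matching background. Clic3 did not separate the genotypes, with 284, 335 and 453 FPKM in wild type and 432, 354 and 502 FPKM in knockout (log2 fold change 0.28, standard error 0.23, limma adjusted p = 0.653). Scgb1a1, Cyp2f2 and Sftpc had entries marked in place of a value and were not tested. Nothing in the labels says that the libraries came from separate animals, so these p-values measure the spread between libraries, which may be technical.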

How the data were processed

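Single-cell values are TPM per gene as the authors deposited them. The submitters' processing notes name RSEM 1.2.20, Bowtie 1.1.1 and the build GRCm38 for them. Bulk values are FPKM as the authors deposited them, for which the notes name TopHat, Bowtie2, Cufflinks and the build mm10. The labels' protocols give 75-nt single reads for bulk, 92 ERCC spike-ins for the chips and inspection of wells for empties, doublets and debris. Of 140 single-cell columns other than controls, 4 with a debris or valve remark and 9 in which under 1000 genes reached a TPM of 1 were left out, and no doublet caller was run. A further 2 knockout samples had no matching column and are not analysed here.

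TPM were used as deposited, with ERCC rows in the total of 1000000 per cell but not among the genes tested. Genes detected (TPM of at least 1) in at least 10% of club-dominant cells were compared as differences of mean log2(TPM + 1), without a test, since each chip is 1 sample. TPM and FPKM give no depth. Intervals are exact binomial and cover counting error only. Bulk genes with 3 or more libraries at 1 FPKM or above were tested as log2(FPKM + 1) with limma 3.58.1 (R 4.3.3) and Benjamini-Hochberg adjustment. The script was checked on simulated data. Other steps used Python 3.11.15, pandas 2.3.3 and numpy 2.4.6.

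The text names the 15 genes of each direction with the largest smaller difference of the chips, the markers and up to 5 members of each of 29 lists. Some genes that this rule names are not reported here. The cells, genes and lists were chosen with earlier results of these data known. Fold changes on the log2(value + 1) scale understate low genes. Promoter windows are RefSeq's and gene positions GENCODE M21's, with 164 of 166 genes found. Alternatives covered the pseudocount, detection, thresholds, scaling, plate rows and each bulk library.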

Additional observations from a re-analysis of the deposited data

Results flagged for a closer look

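Off-chip controls of the chip labelled knockout lie outside the contrast, and the positive one held transcripts of the genes of the contrast. Scgb3a1 was at 27431 TPM in the positive control and at 0.21 TPM in the negative control. The positive control also held 1830 TPM of Bpifb1, 11897 TPM of Reg3g and 14079 TPM of Bpifa1, and 183 TPM of Clic3, against 0, 0, 0.09 and 0 TPM in the negative control. At a TPM of at least 1 it had 75 of the 75 higher and 9 of the 9 lower genes, among 7953 genes in all. The negative control had 2 genes at that level, with 99.998% of its TPM in ERCC spike-ins. Clic3 of the positive control lies within the ranges of both the high and the low cells labelled knockout, and Ager of the positive control was at 16.96 TPM. Each control is 1 sample, and nothing was tested.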

How the results depend on the processing

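The 75 higher and 9 lower genes became 183 and 36 with a pseudocount of 0.1, 29 and 2 with 10, and 114 and 29 by the ratio of mean TPM. In plate rows A to D there were 91 and 3, in rows E to H 102 and 61, and with at least 2000 genes per cell 86 and 14. The other alternatives kept both counts within 1.5 times. Without cells at 1000 TPM or more of Sftpc, an alternative chosen after seeing the data, 89 and 8 passed. Of the 75 genes 23 passed under all 13 alternatives, and of the 9 none did. Of 2184 values of these genes 8 changed sign. By the ratio these were Anxa1 on the chip labelled knockout (-0.41) and Ica1 (-0.17) and Krt19 (-0.064) on the wild-type chip. In rows E to H they were Ifitm3 (-0.61) and Psmd14 (-0.079) on the wild-type chip and Vdac3 (-0.49) on the other, and with little Sftpc Hk2 (0.81) and Map3k1 (-0.30) on the chip labelled knockout. In bulk 1 gene passed, 2 with a pseudocount of 0.1, 3 without a filter, 913 with limma's library weights and 1 to 408 leaving out a library. With the weights 1 of the 73 higher genes passed. With weights, and without wild-type replicate 1, the log2 fold changes were -0.18 and -0.53 for Scgb3a1, -0.39 and -0.51 for Bpifb1, -0.58 and -0.76 for Reg3g, and -0.46 and -0.46 for Bpifa1. Leaving out each library gave -0.53 to 1.53 for Scgb3a1, -0.51 to 1.36 for Bpifb1, -0.76 to 1.37 for Reg3g and -0.46 to 1.23 for Bpifa1. The cause was not tested. No paired analysis was possible because the wild-type and knockout libraries share no replicate number. Depth is unknown, so a TPM of 0 is no proof of absence.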

Other observations

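Further genes among the 75 were picked after their values were seen. Lgr6, a receptor for R-spondins, was detected in 13 of 18 and 27 of 29 high cells and in none of the 39 low cells, with differences of 4.19 and 6.08. Sgk1, a kinase that regulates sodium transport, differed by 4.14 and 4.10, Cp (ceruloplasmin, a copper-carrying oxidase) by 4.29 and 3.74, and Cd14 (a co-receptor for bacterial lipopolysaccharide) by 4.04 and 2.57. Pon1, an esterase, stood at 3.76 and 4.66, and Il13ra1, a subunit of the interleukin 13 receptor, at 3.16 and 3.67. S100a6, a calcium-binding protein, differed more on the chip labelled knockout, by 7.17 against 3.69, a difference that was not tested.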
